A study of Mus musculus with 3 samples.

Results

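The cytosolic ribosomal protein genes encode the proteins of the small and large subunits of the ribosome that translates nuclear messages. They were picked from the deposited table by symbol: Rpl or Rps followed by a number, with the endings used for these genes, plus Rplp0, Rplp1, Rplp2 and Rpsa. The rule found 85 of 18245 genes, which are 31 genes of the small subunit, 46 of the large subunit and 8 paralogues, copies of a ribosomal protein gene that encode an alternative form of the protein. The paralogues are Rpl3l, Rpl7l1, Rpl10l, Rpl22l1, Rpl32l, Rpl36al, Rpl39l and Rps27l. No measured value entered the rule.

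RNA was compared between 3 kinds of cell labelled as ventricle epicardium of C57BL/6 mice, with no genetic change named. CDC are cardiosphere-derived cells, grown from epicardial explants of mice aged 6 weeks through floating spheres and used at passage 3. CDC_EpiC are the cells of 1 epithelial clone that was picked with a cylinder from CDC cultures after 2 weeks in 10 µM SB-431542, which blocks the kinase of the type I receptor for TGF-beta. The pEpiC are primary epicardial cells released with collagenase and trypsin from hearts of mice aged 6 to 8 weeks, also used at passage 3 and kept in another medium, for which no inhibitor is named. Each kind had 3 libraries, taken here as replicates (n = 3). The labels do not tie the libraries to animals or cultures, so p-values measure only the spread between these libraries, which may be technical, and the 3 CDC_EpiC libraries hold no spread between clones.

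Ribosomal protein messages are among the most abundant in a dividing cell, and their products are made in matched amounts because each ribosome holds 1 copy of nearly every protein. Many of these messages begin with a C followed by a run of C and T, the 5′ terminal oligopyrimidine (TOP) tract, through which mTORC1 signalling and LARP1 control their translation as a group. They are also short, so any difference between libraries that follows transcript length bears on the whole family at once.

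The first bases of the messages are shown for genes that the comparisons below turn on. Each window runs from 10 bases before to 20 bases from the transcript start annotated in RefSeq on GRCm38.p6, 5′ to 3′ on the strand of the gene, and capitals mark a C followed by at least 4 C or T within 5 bases of that start. In the first set are genes with such a tract.
Rps27, chr3:90213629-90213658, minus strand: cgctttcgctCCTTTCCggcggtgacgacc
Rps27l, chr9:66946076-66946105, plus strand: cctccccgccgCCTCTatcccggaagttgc
Rpl22l1, chr3:28805498-28805527, plus strand: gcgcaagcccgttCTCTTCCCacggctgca
Rpl7a, chr2:26910797-26910826, plus strand: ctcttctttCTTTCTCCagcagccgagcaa
Rps21, chr2:180257369-180257398, plus strand: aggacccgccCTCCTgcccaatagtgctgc
Rpl27a, chr7:109519185-109519214, plus strand: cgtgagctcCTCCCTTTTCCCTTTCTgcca
Rpl35, chr2:39005112-39005141, minus strand: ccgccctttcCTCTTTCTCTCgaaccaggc
Rps15a, chr7:118116128-118116157, minus strand: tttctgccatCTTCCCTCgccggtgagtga
Rpl39, chrX:37085203-37085232, minus strand: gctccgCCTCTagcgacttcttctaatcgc
The starts used in these cells were not measured and can differ from the annotated ones, so a message of the second set may still carry a tract. In the second set are genes whose annotated start has no such tract within reach.
Rpl41, chr10:128549149-128549178, minus strand: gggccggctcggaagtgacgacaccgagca
Rpl4, chr9:64173377-64173406, plus strand: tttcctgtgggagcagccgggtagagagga
Rpl5, chr5:107900518-107900547, plus strand: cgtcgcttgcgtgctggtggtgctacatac
Rpsa, chr9:120127756-120127785, plus strand: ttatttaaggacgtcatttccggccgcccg
Rpl7l1, chr17:46782637-46782666, minus strand: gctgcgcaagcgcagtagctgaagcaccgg

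Of the 85 genes, 65 matched a RefSeq promoter window, which holds 250 bases before and 50 after the start. A C followed by at least 4 C or T stood exactly at the annotated start of 14 of the 65 genes (21.5%), against 3.01% of 27025 mouse genes with a window. Within 5 bases of the start it was found in 30 (46.2%), against 21.2% of all genes. The letters GGAAGTG or CCGGAAG, which overlap one another and are read by ETS factors such as GABP, were present on either strand of 34 of the 65 genes (52.3%), against 18.9% of all genes. The 69 genes for proteins of the mitochondrial ribosome with a window had those letters in 43.5% and a tract exactly at the start in 0. AAGATGG, a core of YY1 sites, was found in 15.4% of the ribosomal protein genes and 7.28% of all genes, GGGCGG, bound by SP1, in 61.5% and 38.2%, and TATAAA in 12.3% and 15.7%. The 69 mitochondrial genes had AAGATGG in 18.8%, GGGCGG in 49.3% and TATAAA in 7.25%, so the higher share of AAGATGG was not particular to the cytosolic family. These are matches of letters, and binding was not measured.

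Total counts were 22008833 to 22756045 per library. Libraries of a kind differed by more than sampling of reads, with a chi-square divided by its degrees of freedom of 4.89 to 23.0. The ribosomal protein genes took 8.28, 9.09 and 7.36% of all counts in CDC, 8.45, 7.98 and 7.38% in CDC_EpiC, and 4.68, 4.31 and 4.43% in pEpiC. The shares of CDC and CDC_EpiC overlapped, and every pEpiC library lay below every library of the other kinds. The means were 8.24 ± 0.866% in CDC, 7.94 ± 0.536% in CDC_EpiC and 4.47 ± 0.187% in pEpiC (SD, n = 3). In TPM, which divides counts by transcript length and scales each library to 1 total, the share was 21.02 ± 1.52% in CDC, 20.6 ± 1.002% in CDC_EpiC and 14.5 ± 0.440% in pEpiC. All other genes with transcripts under 700 bases, the lengths most ribosomal protein messages have, moved the same way: they held 3.04 ± 0.301% of counts in CDC, 2.81 ± 0.177% in CDC_EpiC and 1.54 ± 0.0729% in pEpiC. In bulk RNA, less of these messages per cell and fewer cells that hold much of them cannot be told apart.

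**Figure D1:**
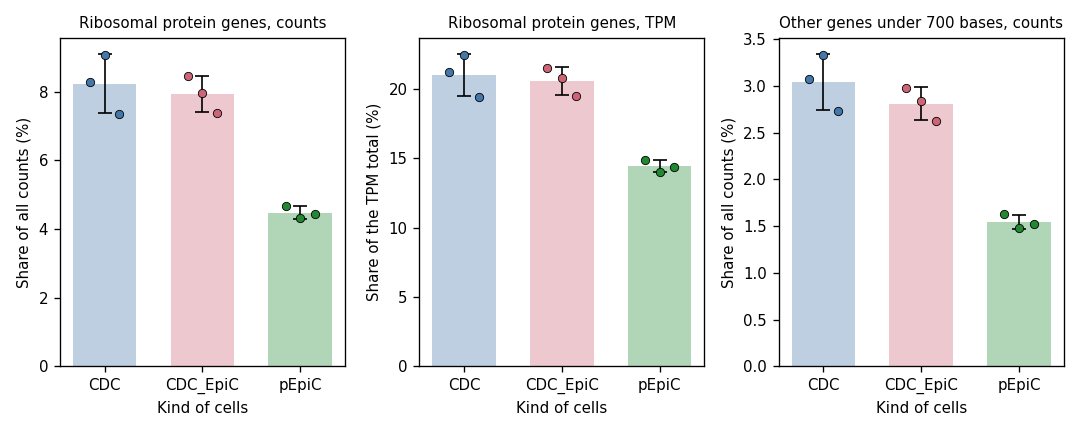
Share of all counts taken by the ribosomal protein genes, their share of the TPM total, and the share of counts of other genes with transcripts under 700 bases, each in percent. Points are libraries, bars are means and error bars are SD (n = 3), and in each panel the 3 pEpiC libraries lie below the 6 libraries of CDC and CDC_EpiC.

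Levels are compared between genes in TPM only. Over the 77 genes that are not paralogues the median level was 2425 TPM in CDC, 2383 in CDC_EpiC and 1886 in pEpiC, and 70, 69 and 63 of them reached 1000 TPM. Rpl41, a very small protein of the large subunit, was highest in CDC (8283 ± 1381 TPM, SD, n = 3) and CDC_EpiC (8501 ± 513 TPM), but at 3164 ± 136 TPM it was only the 7th in pEpiC. Rplp1, of the stalk that recruits translation factors, led in pEpiC at 4282 ± 135 TPM, against 7816 ± 1099 in CDC and 7103 ± 357 in CDC_EpiC. Rps2, at the messenger RNA entry of the small subunit, stood at 7207 ± 312, 7256 ± 701 and 3653 ± 48.8 TPM in CDC, CDC_EpiC and pEpiC. These 3 genes held the first 3 places in CDC and in CDC_EpiC. Their libraries overlapped in CDC, while in CDC_EpiC those of Rpl41 (7929 to 8921 TPM) and Rplp1 (6797 to 7495 TPM) did not and those of Rps2 overlapped both. The order of the 77 genes was much alike in all kinds. Spearman's rho across genes was 0.957 between the means of CDC and CDC_EpiC, 0.868 between CDC and pEpiC and 0.858 between CDC_EpiC and pEpiC, beside 0.963 or more between libraries of a kind; these genes share library, length and detection, and genes are not replicates.

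The lowest of the 77 were Rps6, Rps15a and Rpl22, and their levels are uncertain. Rps6, whose protein is the classic target of S6 kinase, had 530, 734 and 703 counts in CDC, 706, 673 and 710 in CDC_EpiC and 734, 699 and 631 in pEpiC, or 38.2, 41.8 and 52.5 TPM on average. Each ribosome holds 1 S6 protein, yet this row lies far under every other member in TPM that is not a paralogue, and why was not tested. Rps15a was listed with a transcript of 5200 bases and Rpl22 with 2176, so a TPM from those lengths may not be that of the usual message. Transcript lengths here are those implied by counts and FPKM, with a median of 660 bases over the 85 genes and 2623 over all genes, and 8 ribosomal protein genes were listed above 1500 bases. The table also holds near-identical copies, Rps27rt (1085 to 6629 counts per library), Rpl37rt (3435 to 9562) and Rpl31-ps12 (668 to 2948), so the division of reads between these and Rps27, Rpl37 and Rpl31 is uncertain.

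In pEpiC compared with CDC, counts of nearly the whole family were lower. Of 82 members with enough counts to test, 79 fell and 0 rose by the quasi-likelihood test of edgeR at an adjusted p under 0.05, and 0 were higher at an unadjusted p under 0.05. DESeq2 called 79 lower and 1 higher, Rpl39l, which edgeR did not test for its low counts. Of all genes tested, 38.5% were called lower and 39.8% higher. The log2 change of the counts had a median of −1.02 and ran from −1.90 to −0.04. In 78 members every pEpiC library was below every CDC library, which held for 40.1% of all genes, and in 0 members every pEpiC library was above, which held for 41.3%. The small subunit had 30 of 31 members called lower (median log2 change −0.93) and the large subunit 44 of 46 (median −1.10), and all 5 paralogues that could be tested were called lower.

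The 5 largest falls among members with at least 50 CPM (counts scaled to the library total with TMM factors) were in Rpl41, Rps27l, Rpl36, Rpl39 and Rps14. For Rpl41 the CDC libraries held 45374, 50896 and 34002 counts and the pEpiC libraries 13374, 12360 and 12033. The kinds lay far apart, and the fall was 3.73-fold (log2 −1.90, SE 0.13, edgeR adjusted p 6.0e-07). Rps27l, a p53-responsive copy of Rps27, went from 3665, 4179 and 2773 counts in CDC to 1321, 1143 and 1304 in pEpiC, a 3.05-fold fall (SE 0.14 on a log2 change of −1.61). Rpl36 fell 3.02-fold, from 278 ± 40.7 to 92.1 ± 6.93 CPM (SD, n = 3). Rpl39, at the nascent chain exit tunnel, went from 10575, 14790 and 9314 counts in CDC to 4610, 3912 and 4039 in pEpiC, a 2.98-fold fall. Rps14, of the small subunit platform, fell 2.88-fold, from 1323 ± 284 to 460 ± 10.1 CPM.

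At the other end were members whose counts hardly differed. Rpl4 showed 33385, 34188 and 38517 counts in CDC beside 36846, 35684 and 36524 in pEpiC, so its libraries overlapped (log2 −0.07, SE 0.07, edgeR adjusted p 0.354). Rpl5, which carries the 5S RNA into the large subunit with Rpl11 and with it can bind Mdm2, showed 18925, 20987 and 21210 counts in CDC beside 21137, 19256 and 19571 in pEpiC (log2 −0.14, SE 0.07, adjusted p 0.0870). Rps6 was the remaining member without a call (log2 −0.04, adjusted p 0.753). Rpl11, the partner of Rpl5, fell 2.41-fold, from 866 ± 79.3 to 360 ± 15.8 CPM. Named after their values were seen, Rpl23 and Rps3a1 had among the smallest falls past the threshold of the members that are not paralogues, with log2 changes of −0.27 and −0.35. In TPM, members higher in every pEpiC library than in every CDC library included Rpl4, Rpl5, Rpl23, Rps3a1, Rps6, Rpl7l1 and Rpl39l. Rpl4, for example, stood at 2708 to 2738 TPM in pEpiC against 1888 to 2278 in CDC. On the scale of log2(TPM + 1) the median of all genes was itself higher in pEpiC, by 0.41. The share of all genes without overlap in TPM was not counted.

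Among members of known role, the stalk proteins differed in size of change. Rplp0, the base of the stalk, fell 1.90-fold (log2 −0.92, SE 0.07), Rplp2 1.997-fold (log2 −0.998, SE 0.06) and Rplp1 2.597-fold (log2 −1.38, SE 0.12). Rpsa, which is also known as the laminin receptor precursor, went from 97903, 102286 and 88987 counts in CDC to 38927, 37421 and 39503 in pEpiC, a 2.70-fold fall (log2 −1.43, SE 0.08). Rps27a, made as a fusion with ubiquitin, fell 2.42-fold and Rpl38, known for its part in the translation of Hox messages, 2.74-fold. Rps19 and Rps4x fell less, 1.57-fold (log2 −0.65, SE 0.09) and 1.43-fold (log2 −0.51, SE 0.06), as did Rpl3 (1.61-fold), at the peptidyl transferase centre, Rps3 (1.75-fold), at the messenger RNA entry, and Rpl10 (1.76-fold), which joins the large subunit late in its assembly. Each of these had an edgeR adjusted p of at most 7.4e-05 and no overlap between the kinds.

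Changes that involved pEpiC followed transcript length over all genes. In pEpiC vs CDC each doubling of length went with a log2 change higher by 0.387 over 13444 other genes and by 0.165 over the 82 members, whose Spearman's rho with length was 0.369. Genes share library and base composition, so this is a description across genes. The median log2 change of the 327 other genes shorter than 700 bases was −1.15. Each member was set beside all other tested genes within 10% of its length, 27 to 1727 genes, which could be done for 77 members. The median of these like-length values was −1.05, the members lay below their like-length median in 43 of 77 cases, and the median difference was −0.07. Against other genes of at least 50 TPM the difference was 0.08, with 31 of 76 below, and with GENCODE lengths −0.24, with 54 of 75 below, so its sign depended on these choices. Of the 77, 61 lay between 25% and 75% of their like-length genes. Below 10% were 2, Rps15a and Rpsa, and above 90% there were 0.

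**Figure D2:**
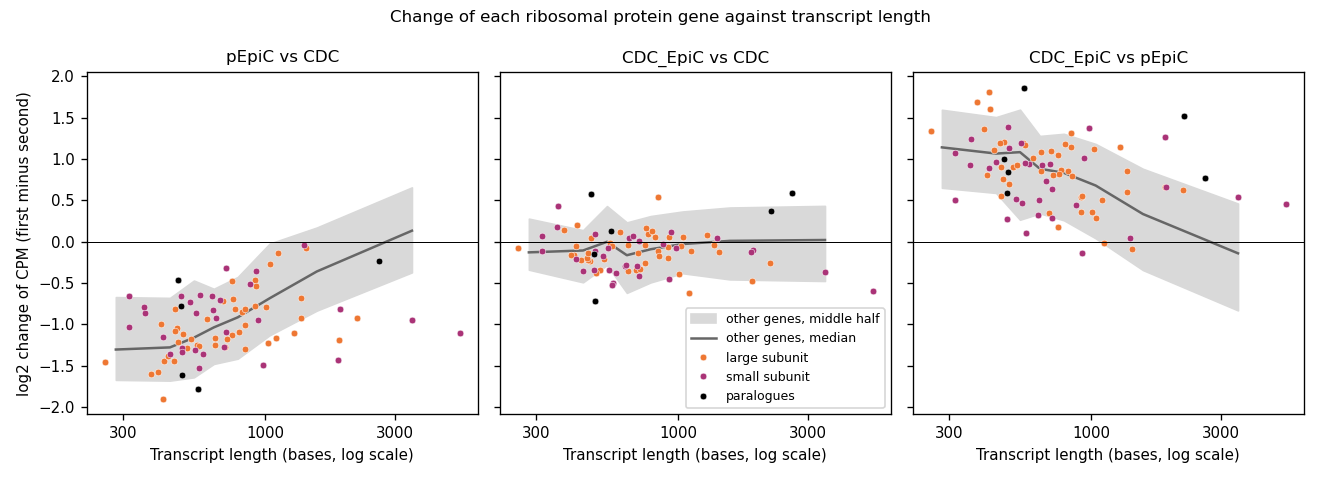
The log2 change of CPM of each ribosomal protein gene tested (points) against its transcript length in bases on a log scale, in the 3 comparisons, with the median (line) and the range from 25% to 75% (band) of other genes in 8 length bins. In the panels that involve pEpiC most points lie within or near the band of genes of like length; in CDC_EpiC vs CDC both lie near 0.

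When the length trend of other genes was taken out of each library as an offset, the common fall of the family was gone and members parted in both directions. Those other genes include the mitochondrial ribosomal protein, proteasome core and respiratory chain genes given below, most of which also fell in counts. In pEpiC vs CDC 35 members were then called higher, 23 lower and 24 neither, with a median log2 change of 0.004, and 32 of the 79 called lower before were now called higher. The same fit called 40% of all genes higher and 34.7% lower. Among those higher with the offset were Rps27 (log2 0.93, adjusted p 2.95e-04 in edgeR), Rpl22l1 (0.85), Rps29 (0.70) and Rpl5 (0.57). Among the lower were Rps15a (log2 −1.46), Rpsa (−1.13, adjusted p 7.0e-08 in edgeR), Rps20 (−1.05), Rpl21 (−0.89), Rpl22 (−0.73), Rps2 (−0.67) and Rpl41 (−0.49). Several of the lower ones are listed above 1500 bases, and the offset is no better than those lengths. Of the higher ones named, Rps27, Rps29 and Rpl22l1 are listed at 316, 360 and 477 bases and Rpl5 at 1114. Few other genes are that short as the first 3: 27 of 200 to 400 bases and 76 of 400 to 500 were tested. Over the 75 members tested with up to 1500 bases, 35 were higher and 16 lower. In log2(TPM + 1) with limma, 66 members were called lower and 6 higher, with a median of −0.51. On that scale 11059 of 13526 genes were called in either direction, and the median of all genes moved to 0.41. Rpl41, Rps2, Rpsa, Rps14 and Rps27l were called lower in pEpiC in counts and with the offset, and their TPM did not overlap either, for example 3030 to 3301 TPM in pEpiC against 6756 to 9443 in CDC for Rpl41.

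**Figure D3:**
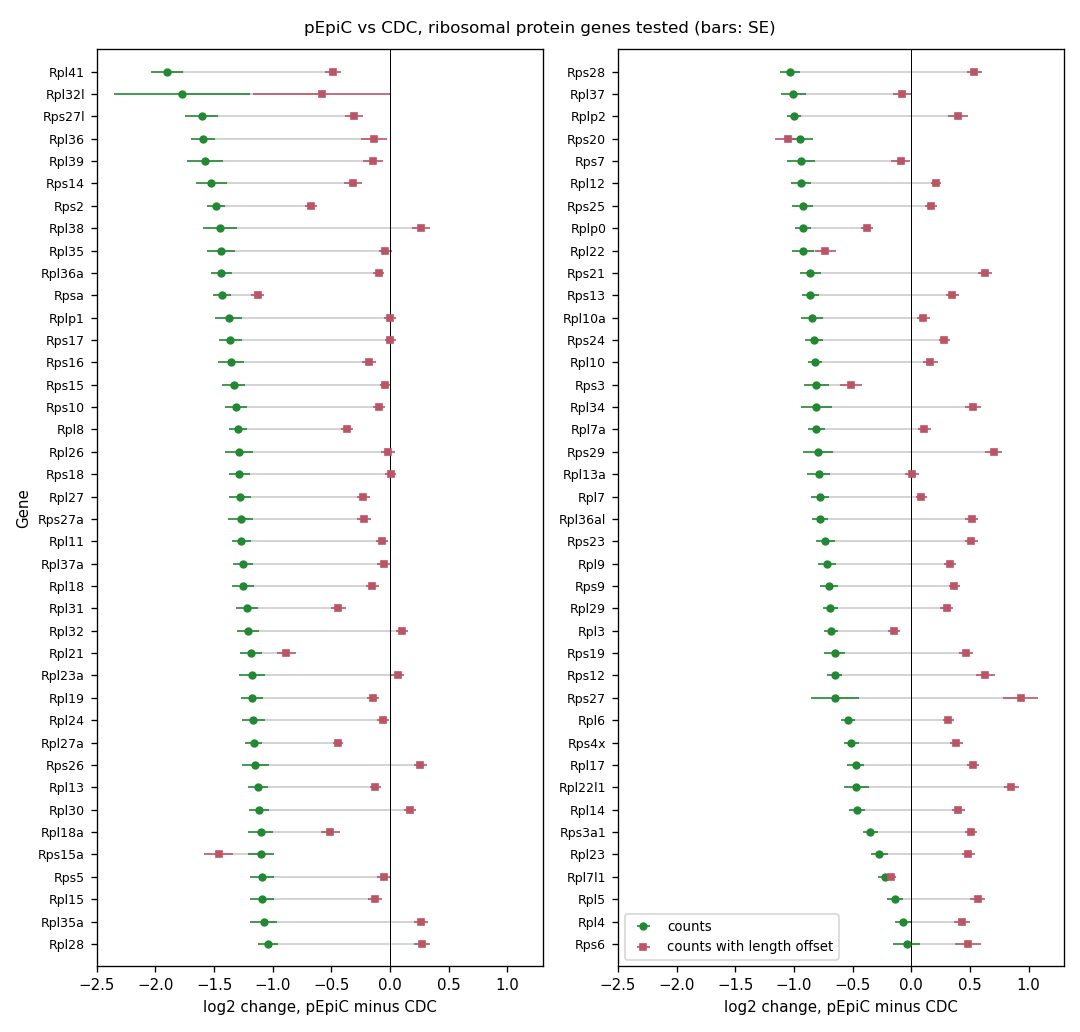
The log2 change of 80 of the 82 ribosomal protein genes tested in pEpiC vs CDC, from counts (circles) and from counts with the length offset (squares), with SE. All circles lie below 0, from −1.90 to −0.04, and the squares lie on both sides of 0.

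CDC_EpiC were compared with the CDC from which the clone arose. Here 83 members could be tested, and edgeR called 4 higher, 25 lower and 54 neither, with a median log2 change of −0.11. That median was −0.04 without CDC replicate 2 and −0.19 without CDC replicate 3. Of all genes tested 34.2% were called higher and 34.6% lower, so 29 of 83 is below the 68.8% called in either direction. Groups did not overlap in 5 members that were higher and 23 that were lower, against 36% and 35.9% of all genes. A test against a 1.5-fold change called 0 members, where it called 3664 of 12976 genes in either direction. At an unadjusted p under 0.05 that edgeR test had 1 member, lower in CDC_EpiC. With the length offset 13 members were called higher and 24 lower, against 35.2% of all genes in each direction.

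Of the 3 CDC libraries, numbers 1 and 2 held red cell messages, 162 and 259 TPM summed over 4 globin genes and Alas2, the first enzyme of haem synthesis in red cells. Library 3 held 0.17 TPM, with 4 of the 5 at 0, and the CDC_EpiC and pEpiC libraries 0.08 to 0.40 TPM. Without CDC libraries 1 and 2 a single CDC library is left (n = 1), which the fit assumes to vary like the 3 libraries of the other kind. In that fit the median log2 change of the members was 0.06. In 44 of 83 members a call was gained or lost when libraries were left out. In pEpiC vs CDC the same omission, again with 1 CDC library, left a median of −0.82. The part that red cell RNA has in these values was not tested.

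The calls that held with each library left out, and against CDC library 3 alone, were 10. Those lower in CDC_EpiC included Rps27l, Rpl27a, Rps15a, Rps3a1 and Rps12, and 4 were higher. Rpl7a, of the large subunit, went from 24514, 25388 and 23684 counts in CDC to 37811, 35469 and 36937 in CDC_EpiC, with the kinds far apart (1.46-fold higher, log2 0.55, SE 0.08, edgeR adjusted p 2.5e-05). Rpl7l1, a paralogue of Rpl7, went from 2182, 2244 and 2209 counts in CDC to 3478, 3333 and 3429 in CDC_EpiC (1.505-fold, log2 0.59, SE 0.07, adjusted p 2.1e-06 in edgeR). Rpl22l1 went from 1254, 1626 and 1219 counts in CDC to 2276, 2134 and 1860 in CDC_EpiC (1.49-fold, log2 0.58, SE 0.11). Rps21 rose 1.35-fold, from 264 ± 27.3 to 355 ± 26.2 CPM (log2 0.43, SE 0.09).

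The largest falls in CDC_EpiC without overlap included those of Rps27l, Rpl27a, Rps15a and Rpl21. Rps27l had 2400, 2178 and 2055 counts in CDC_EpiC, below its 2773 to 4179 in CDC (1.64-fold lower, log2 −0.72, SE 0.12, edgeR adjusted p 8.1e-05). Rpl27a went from 31935, 34014 and 30084 counts in CDC to 22948, 21034 and 20273 in CDC_EpiC (1.53-fold lower, log2 −0.62, SE 0.09). Rps15a fell 1.51-fold and Rpl21 1.39-fold, and Rpl21 lost its call without CDC libraries 1 and 2. Most members of known role were not called: the log2 change was −0.03 for Rplp0, −0.22 for Rplp1, −0.15 for Rplp2, −0.12 for Rpsa, −0.05 for Rpl11, −0.12 for Rpl5, −0.11 for Rps3, −0.04 for Rpl3, 0.10 for Rpl10, −0.07 for Rpl38 and −0.03 for Rps4x, each with an SE of 0.08 to 0.13. Rps19 was called lower (log2 −0.29, SE 0.09, edgeR adjusted p 0.00875), as were Rps27a (−0.29) and Rpl22 (−0.26), whose libraries overlapped. Rps19 lost its call without CDC replicate 2 and without CDC libraries 1 and 2, and Rps27a and Rpl22 lost theirs in 4 and 5 of the fits with libraries left out, CDC replicate 1 and CDC replicate 2 among them.

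The comparison of CDC_EpiC with pEpiC shares its libraries with the comparisons above, so its values are given on their own. Of 83 members tested, 77 were higher and 0 lower in CDC_EpiC, where 40.3% of all genes were called higher, and 0 were lower at an unadjusted p under 0.05. Every CDC_EpiC library was above every pEpiC library in 75 members (41.2% of all genes) and below in 0 (42.7%). DESeq2 called 76 higher and 1 lower, Rpl39l. The median log2 change was 0.86. The largest rises among members with at least 50 CPM were in Rpl41 (3.50-fold, log2 1.81, SE 0.08), Rpl36 (3.22-fold), Rpl35 (3.04-fold), Rps15 (2.61-fold) and Rps2 (2.59-fold), each with an edgeR adjusted p of at most 1.04e-07. Rpl35, next to the exit tunnel, had 38260, 37728 and 31345 counts in CDC_EpiC and 12802, 11306 and 12057 in pEpiC. Among the 6 members without a call were Rpl4 (log2 −0.09, SE 0.08), Rpl5 (−0.02), Rps3a1 (−0.14), Rpl17 (0.17) and Rps6 (0.05). The like-length genes had a median of 0.91 and the members differed from them by a median of −0.03, below in 40 of 78, and with GENCODE lengths by 0.12. With the length offset 25 members were called higher and 39 lower, with a median of −0.10, against 37.1% and 43.1% of all genes. Rpl41 (log2 0.58), Rps2 (0.63), Rpsa (0.96) and Rpl7a (0.48) were higher in CDC_EpiC both ways, and Rps3a1 (−0.92), Rps27 (−0.88) and Rps12 (−0.87) were lower with the offset, where Rps27 and Rps12 had been called higher in counts.

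Paralogues can replace their parent protein in the ribosome or act outside it. The level of each was set beside that of its parent in the same library, as a percent of the parent TPM. A factor common to a whole library cancels in this ratio, but a length trend does not where the pair differ in length. Rpl22l1 stood at 54.0, 63.1 and 59.8% of Rpl22 in CDC, at 111, 103 and 103% in CDC_EpiC and at 82.7, 85.8 and 78.8% in pEpiC. No kind overlapped another, and only in CDC_EpiC did the paralogue exceed its parent on this scale. The log2 ratio was higher in CDC_EpiC than in CDC by 0.84 and that of pEpiC exceeded CDC by 0.49, each with an exact permutation p of 0.1 and 0.133 adjusted over 12 tests. With 3 libraries against 3 an exact two-sided test cannot give less than 0.1. Rpl22l1 and Rpl22 are listed at 477 and 2176 bases, and with the length offset their log2 changes were 0.85 and −0.73 in pEpiC vs CDC, 0.69 and −0.27 in CDC_EpiC vs CDC, and −0.16 and 0.42 in CDC_EpiC vs pEpiC. With the offset, then, the order of pEpiC and CDC_EpiC turned, while both kept a higher ratio than CDC.

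Rpl7l1 stood at 2.84, 2.596 and 3.02% of Rpl7 in CDC, 4.28, 4.74 and 5.61% in CDC_EpiC and 4.004, 4.295 and 4.04% in pEpiC. Both other kinds lay above CDC without overlap, by log2 ratios of 0.79 and 0.55, and overlapped each other. The pair are listed at 2620 and 915 bases. With the length offset the log2 changes of Rpl7l1 and Rpl7 were 0.58 and −0.13 in CDC_EpiC vs CDC but −0.17 and 0.09 in pEpiC vs CDC, so the direction in pEpiC depended on the offset. Rpl36al stood at 21.2, 20.1 and 22.7% of Rpl36a in CDC and 20.5, 21.4 and 24.5% in CDC_EpiC, which overlapped, and at 33.4, 32.7 and 34.3% in pEpiC, above both. In pEpiC the counts of Rpl36a fell 2.71-fold from CDC and those of Rpl36al 1.72-fold, although the 2 messages are of like length (461 and 490 bases listed).

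Rps27l moved the other way, at 19.98, 26.4 and 26.0% of Rps27 in CDC, 15.5, 13.9 and 17.9% in CDC_EpiC and 10.7, 14.5 and 12.2% in pEpiC. CDC lay above both other kinds, which overlapped. Rps27 itself showed 11713, 10101 and 6798 counts in CDC against 7864, 5018 and 6828 in pEpiC, and the part of the reads given to Rps27 rather than to its copy Rps27rt went from 59.9 to 87.9% between libraries. Summed, the 2 rows had 14799, 16730 and 11342 counts in CDC, 13583, 13870 and 11082 in CDC_EpiC and 8949, 7561 and 7985 in pEpiC, so that pEpiC no longer overlapped CDC. Against that sum Rps27l stood at 16.1, 16.5 and 16.1% in CDC, 11.53, 10.3 and 12.2% in CDC_EpiC and 9.49, 9.86 and 10.5% in pEpiC. The sum was tried after the data were seen, and it narrowed the spread between CDC libraries.

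**Figure D4:**
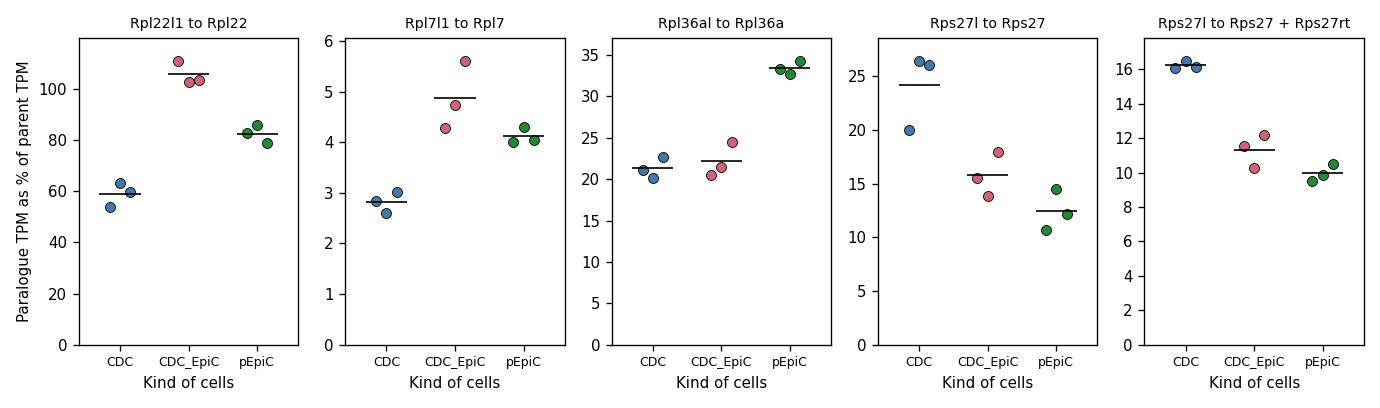
TPM of each paralogue as a percent of the TPM of its parent gene, by kind of cells, with 1 point per library and a line at the mean (n = 3). The last panel sets Rps27l against Rps27 and its copy Rps27rt together, where the CDC libraries lie at 16.1 to 16.5%.

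The other paralogues were at or near the limit of detection. Rpl39l, known from male germ cells, had 0 counts in every CDC library, where a count of 0 leaves room for up to 3 per library, 1, 0 and 0 in CDC_EpiC, and 9, 8 and 10 in pEpiC. Rpl10l, an autosomal copy of the X-linked Rpl10 that is also known from the testis, had at most 3 counts in any library. Rpl3l, known from heart and skeletal muscle, had 13, 13 and 4 counts in CDC, 17, 11 and 12 in CDC_EpiC and 7, 2 and 5 in pEpiC. Rpl32l had 2 to 32 counts per library, and its fall in pEpiC (log2 −1.78, SE 0.58, edgeR adjusted p 0.0168) was lost when CDC replicate 2 or pEpiC replicate 3 was left out. The limit of 3 counts covers counting error only.

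Other genes of translation and growth were taken from lists. Their counts are to be read against all genes tested, of which edgeR called 39.8% higher and 38.5% lower in pEpiC vs CDC, or 40% and 34.7% with the length offset, 34.2% and 34.6% in CDC_EpiC vs CDC, and 40.3% and 41.5% in CDC_EpiC vs pEpiC. Of 19 further TOP messages, among them elongation factors, 17 fell and 1 rose in pEpiC vs CDC (median log2 −0.67). Eef1d, of the elongation factor complex, fell by 1.38 on the log2 scale. Eef1a1 rose (log2 0.21, edgeR adjusted p 0.0287). With the length offset the counts were 11 lower and 5 higher. In CDC_EpiC vs CDC, 2 of the 19 rose and 4 fell, with Eef1g lowest (log2 −0.61) and Tpt1 highest (0.34). In CDC_EpiC vs pEpiC 16 rose and 0 fell in counts (median log2 0.40). With the length offset 9 rose and 8 fell there (median 0.12), against 37.1% and 43.1% of all genes.

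Of 29 ribosome assembly genes, which act in the nucleolus and have a median length of 2488 bases, 21 fell and 4 rose in pEpiC vs CDC (median log2 −0.62), and with the length offset 23 fell and 3 rose (median −0.55). Nhp2, a core protein of the particles that pseudouridylate ribosomal RNA, fell from 98.5 ± 11.52 to 24.8 ± 0.915 CPM (log2 −1.99, SE 0.09, edgeR adjusted p 2.5e-08), and Nop10, of the same particles, by 1.55 on the log2 scale. Gnl3 rose (log2 0.43). Mdn1, a very long gene, rose (log2 0.71) and stood at −0.06 with the offset. In CDC_EpiC vs CDC 4 rose and 11 fell, with Nhp2 again lower (log2 −0.94) and Surf6 higher (0.57), where 34.2% of all genes rose and 34.6% fell. In CDC_EpiC vs pEpiC 18 rose and 6 fell, Nop10 most (log2 1.73).

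Of 14 genes of RNA polymerase I and its factors, which make ribosomal RNA, 10 fell and 1 rose in pEpiC vs CDC (median log2 −0.39), Znrd1 by 1.02 and Cd3eap by 0.96 on the log2 scale, and 6 fell and 3 rose with the length offset. In CDC_EpiC vs CDC 7 rose and 4 fell, among them Polr1c (log2 0.69) and Taf1c (0.73) higher and Polr1a lower (−0.44), beside 34.2% of all genes higher and 34.6% lower. In CDC_EpiC vs pEpiC 8 rose and 1 fell. Of 16 genes that control growth and TOP translation, with a median length of 3259 bases, 5 rose and 5 fell in pEpiC vs CDC in counts. Each was a smaller share than among all genes (39.8% and 38.5%). With the length offset 4 rose and 9 fell (median log2 −0.15), where 40% of all genes rose and 34.7% fell, so the balance depended on the offset. In counts, Myc fell from 127 ± 7.505 to 49.8 ± 8.13 CPM (log2 −1.35, SE 0.10), and Rps6kb1, an S6 kinase, rose (log2 0.67). In CDC_EpiC vs CDC 6 rose and 6 fell, near the share among all genes. Mycn rose from 7.68 ± 1.01 to 66.3 ± 16.5 CPM (log2 3.11, SE 0.16, edgeR adjusted p 1.6e-10) and Mtor by 1.11 on the log2 scale, while Eif4e and Eif4ebp1 fell by 0.83 and 0.64 on that scale.

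Genes of other large complexes were mostly lower in pEpiC as well. Of 78 mitochondrial ribosomal protein genes, 77 fell and 0 rose in pEpiC vs CDC (median log2 −0.96), and 42 fell and 12 rose with the length offset (median −0.21), where 38.5% of all genes fell in counts and 34.7% with the offset. Of 18 proteasome core genes 16 fell and 0 rose, or 10 and 1 with the offset, and of 85 respiratory chain genes 79 fell and 3 rose, or 44 and 13 with the offset. The medians of these 3 lists with the offset, −0.21, −0.26 and −0.18, stayed below 0, where the ribosomal protein genes had 0.004. Among their largest falls were Mrpl12, Psmb3 and Cox7a2, by 1.92, 1.94 and 2.03 on the log2 scale, and with the offset their log2 changes were −1.06, −0.89 and −1.003.

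**Figure D5:**
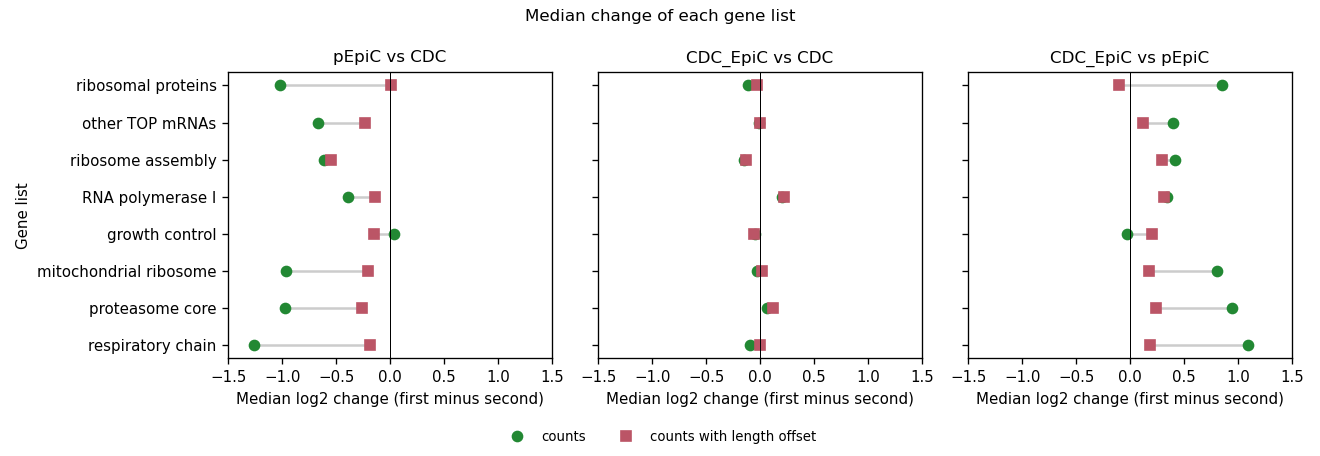
Median log2 change of the ribosomal protein genes and of 7 other gene lists in the 3 comparisons, from counts (circles) and from counts with the length offset (squares). In pEpiC vs CDC the ribosomal protein genes move from −1.02 to 0.004 and ribosome assembly genes from −0.62 to −0.55.

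Markers of state and of other cells moved beside these results, and their part in them was not tested. All 10 proliferation markers fell in pEpiC and in CDC_EpiC against CDC, with medians of −2.44 and −0.99 on the log2 scale, and their summed level was 1133 to 1182 CPM in CDC, 558 to 688 in CDC_EpiC and 210 to 289 in pEpiC. These sums did not overlap between kinds, and the part of proliferation in the share of ribosomal protein genes was not tested. All 10 macrophage markers were detected in each pEpiC library, at a summed 312 to 890 CPM against 56.0 to 59.9 in CDC, where 3 or 4 were at 0, and 22.9 to 25.9 in CDC_EpiC, where 4 or 5 were at 0. Without pEpiC replicate 1, which held the most macrophage marker counts, 79 ribosomal protein genes were called lower than in CDC. That fit called 10374 of 13703 genes in either direction. The pEpiC libraries kept in it still held 343 and 312 CPM of these markers, so the part of macrophage RNA was not tested by it. The 10 cardiomyocyte markers summed to 139 to 158 CPM in pEpiC, 27.6 and 28.4 in CDC libraries 1 and 2, 9.18 in CDC library 3 and 11.9 to 13.5 in CDC_EpiC. Of these, 2 or 3 were at 0 in pEpiC libraries, 0 to 4 in CDC and 1 or 2 in CDC_EpiC. In pEpiC vs CDC only 3 had enough counts to test, with 1 called higher and 1 lower, so the sum rests on few genes. All 10 epicardial and mesothelial markers were detected in all libraries, at a summed 5945 to 6659 CPM in CDC_EpiC, 654 to 688 in CDC and 553 to 585 in pEpiC. They moved both ways, with 5 called higher and 5 lower in pEpiC vs CDC. In CDC_EpiC vs CDC 6 were called higher and 2 lower, of 8 tested. The 5 stromal markers, Col1a1, Col1a2, Vim, Pdgfra and Thy1, were above 0 in all libraries and summed to 6950 to 7921 CPM in CDC_EpiC, 12230 to 14590 in CDC and 22670 to 24820 in pEpiC, with no overlap between kinds. Of these 5, 3 were called higher and 2 lower in pEpiC vs CDC, and 1 higher and 3 lower in CDC_EpiC vs CDC. The shares of all genes called were 39.8% higher and 38.5% lower in pEpiC vs CDC, and 34.2% and 34.6% in CDC_EpiC vs CDC. A sum therefore does not give the direction of each marker.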

How the data were processed

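The authors aligned and counted paired reads of 100 bases. The submitters' processing notes name HISAT2 2.0.4, Bowtie2 2.2.5, RSEM 1.2.12, DESeq2 1.4.5 and the build mm10, without roles or order, and whether strand was used is not given in the sources used here. The authors deposited, for each gene and library, expected counts from RSEM's estimate (30.3% of values not whole), FPKM (scaled by transcript length and library total) and TPM. Their columns of means were not used.

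Expected counts were rounded and fitted in edgeR 4.0.16 (R 4.3.3), with filterByExpr (minimum count 10, minimum total 15), TMM, glmQLFit and glmQLFTest, for the 6 libraries of each pair of kinds, with Benjamini-Hochberg adjustment over all genes tested and a threshold of 0.05. The length offset was a lowess curve (span 0.3) over log2 length of each library's deviation from the mean log2 count of a gene, fitted without the ribosomal protein genes. Paralogue ratios used log2(TPM + 0.5) and exact permutation. The fits were tested on simulated data. Alternatives included DESeq2 1.42.0 and limma 3.58.1. The intervals and floors cover counting error only, and 22008833 to 22756045 counts per library leave that error small beside the spread between libraries. Library numbers, which no label ties to a shared day or animal, did not pair kinds (correlations of same-numbered libraries −0.122 to 0.180).

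The genes named are, for each comparison, the 5 largest rises and falls past the threshold without overlap and with at least 50 CPM, all paralogues with their parents, and a set of members with known roles. From each other list up to 2 rises and 2 falls with at least 20 CPM were eligible, not all of which are printed. Rpl32l and members named from the offset or for small changes were named after their values were seen. The members and lists were chosen with earlier results of these data known. Promoter windows and the coordinates printed with them come from RefSeq tables on GRCm38.p6. Some items are not reported here.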

Additional observations from a re-analysis of the deposited data

How the results depend on the processing

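Counts of ribosomal protein genes called in pEpiC vs CDC were 62 to 80 over all alternatives but the length offset, which gave 58 (35 higher, 23 lower). The median log2 change of −1.02 became 0.00400 with that offset, −0.907 with library size alone, −0.875 in FPKM, −0.515 in TPM and −0.818 without CDC libraries 1 and 2, an omission chosen after seeing the data that leaves 1 CDC library, assumed to vary like the other kind. In CDC_EpiC vs pEpiC the offset gave 64 calls (25 higher, 39 lower) and a median of −0.104 in place of 0.857, and TPM a median of 0.474; the other counts were 52 to 78. In CDC_EpiC vs CDC the 29 calls became 18 in FPKM and 0 against a 1.5-fold change, where 8797 and 3664 of 12976 genes were called. Without CDC libraries 1 and 2 the median there was 0.0629. Leaving out 1 library at a time gave 22 to 43 calls there, 78 to 80 in pEpiC vs CDC and 76 to 78 in CDC_EpiC vs pEpiC. In CDC_EpiC vs CDC the fewest came without CDC_EpiC replicate 3 and the most, 43, without CDC replicate 3.

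The difference from genes of like length, −0.0684 in pEpiC vs CDC, was 0.0776 against genes of at least 50 TPM and −0.244 with GENCODE lengths, and in CDC_EpiC vs pEpiC, −0.0321 became −0.177 and 0.117. The GENCODE lengths were tried after seeing the data. The log2 ratio of Rpl36al to Rpl36a in CDC_EpiC vs CDC, 0.0524, was −0.0224 to 0.106 with 1 library left out, lowest without CDC_EpiC replicate 3. The shares in TPM, 21.02, 20.6 and 14.45%, differ from shares of counts by construction. The library number as a block gave 79, 31 and 78 calls for pEpiC vs CDC, CDC_EpiC vs CDC and CDC_EpiC vs pEpiC, against 79, 29 and 77 without it. The causes of these changes were not tested. Depth limits mainly Rpl39l, Rpl10l, Rpl3l and Rpl32l.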
